A study of Mus musculus with 8 samples.

Results

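The HoxC cluster holds the 9 mouse genes Hoxc4, Hoxc5, Hoxc6, Hoxc8, Hoxc9, Hoxc10, Hoxc11, Hoxc12 and Hoxc13, which were selected by gene name. All 9 had a row in each of 2 deposited tables, which share 26200 named genes. RNA was sequenced from hair matrix keratinocytes, the dividing epithelial cells that surround the dermal papilla in the follicle bulb and form the hair shaft and its inner sheath. Cells were sorted from the skin of mice at postnatal day 4.5. One pair of groups was untreated: wild type (WT) and a Tet2/Tet3 double knockout made with Krt14-Cre (DKO). The other pair had the same genotypes and a subcutaneous dose of 50 µg of 5-aza at postnatal day 2.5. 5-aza is an inhibitor of DNA methyltransferases, and Tet2 and Tet3 encode dioxygenases that oxidise 5-methylcytosine. Each of the 4 groups had 2 libraries. Krt14-Cre is driven by the keratin 14 promoter, which is active in keratinocytes and not in dermal cells. The labels do not say whether WT mice carried a Cre or floxed alleles, nor whether the libraries of a group came from separate animals. Every p-value here reflects the spread between libraries. In each untreated group the 2 libraries differed in the sex-linked RNAs Xist and Ddx3y, so they did not come from the same animals. Their spread can therefore include sex, while after 5-aza the spread may be technical.

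Hox genes encode transcription factors that bind DNA through a homeodomain and are laid out along the chromosome in the order in which they are switched on along the body axis. Polycomb and Trithorax complexes keep them off or on in later tissue. In skin, dermal cells keep HOX expression patterns of their body position, and Hoxc13, at the 5′ end of the HoxC cluster, is known in the follicle epithelium as an activator of hair keratin genes that is needed for a normal hair shaft.

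The members lie on the plus strand of chromosome 15 (GRCm38). Hoxc13 (ENSMUSG00000001655) is the most upstream, at chr15:102921103-102928814, and Hoxc4 the most downstream, at chr15:103018934-103036852. Hoxc12 follows Hoxc13 at chr15:102936757-102938609, and Hoxc11 is at chr15:102954427-102957708. Hoxc10 (chr15:102966796-102971893) and Hoxc5 (chr15:102967443-103017429) overlap, since 1 of 2 annotated Hoxc5 transcripts starts within Hoxc10. The genes share 166 exon bases on the same strand, 8.70% of Hoxc10 and 5.37% of Hoxc5, so the split of reads between these 2 genes is uncertain there. Hoxc9 (ENSMUSG00000036139, chr15:102976439-102985099), Hoxc8 (ENSMUSG00000001657, chr15:102990607-102994111) and Hoxc6 (chr15:102998257-103011881) share no annotated exon bases with another member.

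The homeobox, the 180 coding bases for the homeodomain that binds DNA, is the stretch that defines the family. The homeoboxes of Hoxc13, Hoxc9 and Hoxc8 are shown because the results turn on these genes. Letters are from the coding sequence of GENCODE M21 transcripts (GRCm38), 5′ to 3′. Capitals mark bases 142 to 159, the codons of the conserved tryptophan-phenylalanine-glutamine-asparagine-arginine-arginine stretch of the third helix.
Hoxc13: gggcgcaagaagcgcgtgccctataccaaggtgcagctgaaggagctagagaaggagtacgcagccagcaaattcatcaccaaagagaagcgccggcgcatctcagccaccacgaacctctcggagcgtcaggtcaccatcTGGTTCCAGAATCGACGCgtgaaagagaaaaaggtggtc
Hoxc9: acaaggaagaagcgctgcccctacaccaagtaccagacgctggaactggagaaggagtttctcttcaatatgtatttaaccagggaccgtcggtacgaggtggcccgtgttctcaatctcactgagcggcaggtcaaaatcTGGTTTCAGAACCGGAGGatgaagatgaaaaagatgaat
Hoxc8: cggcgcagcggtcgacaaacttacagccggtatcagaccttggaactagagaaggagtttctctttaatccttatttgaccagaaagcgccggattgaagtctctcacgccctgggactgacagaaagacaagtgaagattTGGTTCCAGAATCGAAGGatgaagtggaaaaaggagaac
Hoxc9 matched Hoxc13 at 56.7% of the bases and Hoxc8 matched it at 53.3%. Over the 36 pairs of members, identity ran from 48.3% to 77.8%, and the longest identical run in aligned position was 20 bases, shorter than the sequenced reads.

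Library totals, inferred from the values, were between 19528602 and 22837436 in the untreated table and between 39493929 and 58353167 in the 5-aza table. Genes with a row took 55.8% to 62.0% and 38.4% to 42.4% of these totals. The tables were normalised separately, so levels in the untreated and 5-aza groups are only set side by side. Tet3 was 11.8 and 11.4 FPKM in the WT libraries and 6.92 and 7.31 in the DKO libraries, and Tet2 was 3.23 and 3.28 against 2.72 and 2.55; after 5-aza Tet3 was 10.4 and 11.5 against 6.54 and 5.99. FPKM is the number of reads scaled to the length of the gene and the total of the library. Which exons were deleted is not given in the sources used here, so these gene-level values do not test the loss. Markers of the labelled cells were present: the summed FPKM of 7 hair matrix genes (Lef1, Msx1, Msx2, Dlx3, Shh, Ovol1 and Mki67) was 184.7 to 245.2 untreated and 237.3 to 291.4 after 5-aza. Dermal markers were present too. The 8 dermal papilla markers summed to 163.7 to 228.6 FPKM untreated and 20.7 to 60.1 after 5-aza. For the 8 dermal fibroblast markers the sums were 471.1 to 1361 and 67.9 to 144.2 FPKM. In the untreated groups both replicates 1 had Xist at 74.4 to 82.1 FPKM and both replicates 2 had it at 0.327 to 1.19, with the Y-linked Ddx3y high in the latter, so each genotype held 1 library of each kind. After 5-aza every library had both, but their levels differed between genotypes. Xist was 16.9 and 23.1 FPKM in WT and 4.60 and 3.65 in DKO. Ddx3y was 1.24 and 0.917 FPKM in WT and 2.08 and 2.00 in DKO. This difference goes with genotype in the 5-aza comparison and enters the interaction, and its part in the HoxC values was not tested.

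In the untreated libraries, Hoxc13 and the genes from Hoxc4 to Hoxc9 differed between genotypes in opposite directions. Hoxc13 was about 2.18 times as high in DKO as in WT, while Hoxc9, Hoxc4, Hoxc8, Hoxc6 and Hoxc5 were lower in both DKO libraries than in either WT library. WT was 2.67 times DKO for Hoxc9, 1.94 times for Hoxc4, 1.83 times for Hoxc8, 1.60 times for Hoxc6 and 1.27 times for Hoxc5. None of the 8 members tested passed an adjusted p of 0.05 in limma, a linear model fitted to log2(FPKM + 1) over all 17339 genes with enough reads, of which 0.00577% passed. By voom on recovered reads 0 passed as well, and the authors' deposited table has 2 members past 0.05. At an unadjusted p under 0.05, 1 member was higher and 4 were lower, against 6.72% and 4.73% of all genes tested. Without DKO replicate 2 the counts were 0 higher and 3 lower. The median difference of the 8 was -0.39 on the log2 scale, beside 0.01 for all genes tested. In 4 libraries of sorted cells, fewer cells of a type and less RNA per cell cannot be told apart.

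**Figure D1:**
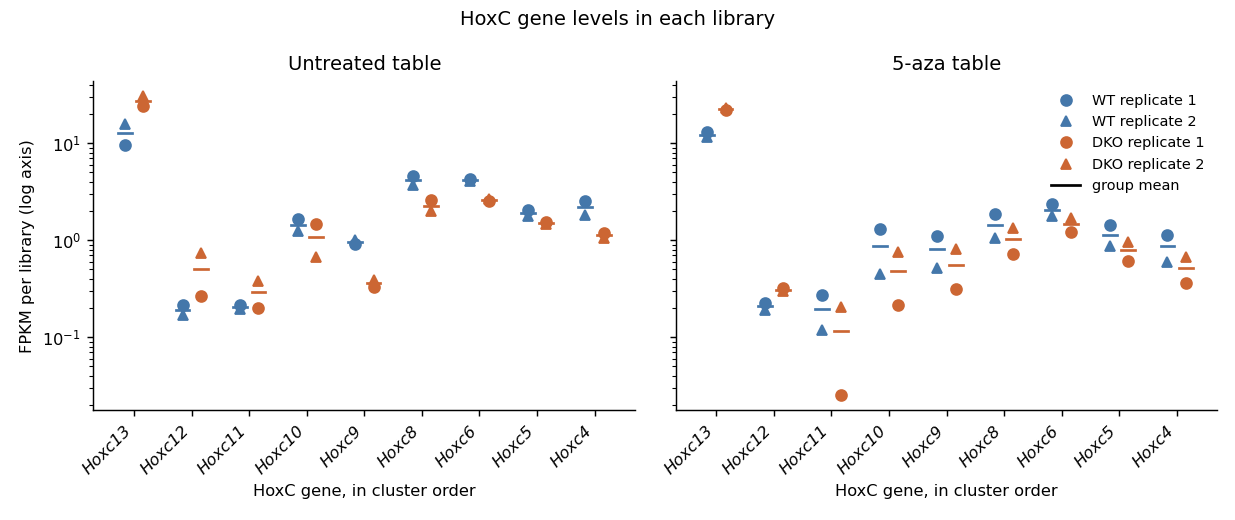
Level of each HoxC gene in FPKM on a log axis, in cluster order from Hoxc13 to Hoxc4, for WT (blue) and DKO (orange) libraries of the untreated table (left) and the 5-aza table (right); circles are replicates 1, triangles replicates 2 and bars group means. Hoxc13 lay higher in DKO in both tables (24.4 and 30.7 FPKM against 9.49 and 15.8 untreated), and Hoxc9 was lower in DKO without overlap in the untreated table alone.

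Hoxc13 was the most abundant member in every library. Its level was 9.49 and 15.8 FPKM in the untreated WT libraries and 24.4 and 30.7 FPKM in the DKO libraries. The groups did not overlap, and the WT libraries were as far apart as the DKO libraries (12.6 ± 4.46 and 27.6 ± 4.49, SD, n = 2). Between libraries of the same replicate number, which were alike in Xist, it went from 9.49 to 24.4 and from 15.8 to 30.7. The log2 difference was 1.10 ± 0.26 (SE, 95% interval ± 0.68, adjusted p = 0.268, limma). In the authors' deposited table, from DESeq2 on counts, the same difference was 1.11 ± 0.20 with an adjusted p of 7.6e-06. That table called 0.793% of its genes higher and 0.486% lower in DKO.

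Hoxc12 and Hoxc11, the next genes of the posterior end, were near the detection limit. Hoxc12 had 5 and 4 reads in WT and 6 and 15 reads in DKO, and it was below the low-read filter. The exact 95% Poisson interval was 1.09 to 10.2 for 4 reads and 8.40 to 24.7 for 15, covering counting error only. Its levels of 0.213 and 0.171 FPKM in WT and 0.263 and 0.746 in DKO did not overlap, but the interval of each DKO library reached into those of both WT libraries. Hoxc11 had 10, 9, 9 and 15 reads, or 0.217 and 0.196 FPKM in WT and 0.201 and 0.380 in DKO. Its groups overlapped (0.09 ± 0.08, adjusted p = 0.719, limma).

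Hoxc10, which takes part in patterning the lumbar trunk and hindlimb, was 1.65 and 1.24 FPKM in WT and 1.46 and 0.671 FPKM in DKO. DKO replicate 1 lay between the WT libraries (-0.27 ± 0.21, 95% interval ± 0.56, adjusted p = 0.710, limma). Without DKO replicate 2 the difference was 0.014.

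Hoxc9, a thoracic patterning gene, had the smallest p of the cluster in limma, while in the authors' deposited table Hoxc13, Hoxc8, Hoxc4 and Hoxc6 had smaller ones. It was 0.919 and 1.01 FPKM in WT and 0.330 and 0.392 FPKM in DKO, from 63, 69, 22 and 23 reads. Both DKO libraries were well below both WT libraries, and the exact 95% Poisson intervals of their reads (13.8 to 33.3 and 14.6 to 34.5) did not reach those of WT (48.4 to 80.6 and 53.7 to 87.3). The log2(FPKM + 1) difference was -0.53 ± 0.07 (adjusted p = 0.145, limma). The added 1 shrinks the change of a gene at this level: with 0.1 added it was -1.21, and on recovered reads with voom weights it was -1.41, with no call either way. The authors' deposited table gives -1.44 ± 0.52 and an adjusted p of 0.238.

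Hoxc8, which patterns the thoracic skeleton, was 4.63 and 3.71 FPKM in WT and 2.58 and 1.98 FPKM in DKO. Replicate 1 was the higher library in each genotype, and the groups did not overlap (-0.66 ± 0.14, adjusted p = 0.245, limma). In the authors' deposited table Hoxc8 was the only member besides Hoxc13 past 0.05, with a difference of -0.90 ± 0.25 and an adjusted p of 0.0244. Hoxc6 libraries were close within each group, with 4.27 and 4.07 FPKM in WT and 2.54 and 2.67 FPKM in DKO. Its difference was -0.52 ± 0.09 (adjusted p = 0.179, limma). Hoxc6 is active in the brachial and thoracic trunk.

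Hoxc5 and Hoxc4, the anterior end of the cluster, were lower in DKO by unequal amounts. Hoxc5 was 2.07 and 1.76 FPKM in WT and 1.53 and 1.48 FPKM in DKO, without overlap but with a gap smaller than that between the WT libraries (-0.22 ± 0.10, adjusted p = 0.487, limma). Hoxc4 was 2.53 and 1.83 FPKM in WT and 1.19 and 1.06 FPKM in DKO. Its difference was -0.57 ± 0.14 (adjusted p = 0.268, limma). WT replicate 1 was the highest library for Hoxc4, Hoxc5, Hoxc6, Hoxc8 and Hoxc10, and the lowest for Hoxc13. Of the 9 members, 5 were lower and 2 higher (Hoxc13 and Hoxc12) in DKO without overlap between groups, beside 19.3% and 24.1% of all genes tested. Hoxc12 was below the low-read filter and so is not among the genes tested.

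The make-up of HoxC RNA differed accordingly. Hoxc13 accounted for 36.5% and 53.0% of the summed HoxC FPKM in the WT libraries and for 70.7% and 76.6% in the DKO libraries. The other 8 members together summed to 16.5 and 14.0 FPKM in WT and to 10.1 and 9.38 FPKM in DKO. The whole cluster summed to 25.99 and 29.8 FPKM in WT and to 34.5 and 40.1 FPKM in DKO.

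**Figure D2:**
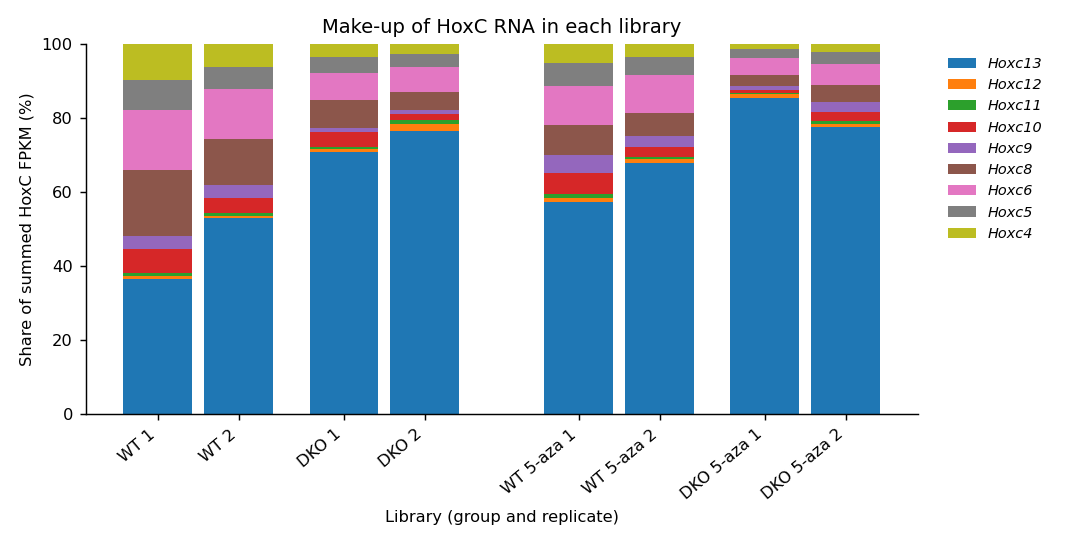
Share of the summed HoxC FPKM (%) taken by each member in each of the 8 libraries, stacked from Hoxc13 at the bottom to Hoxc4 at the top. Hoxc13 held 36.5% to 53.0% in untreated WT and 70.7% to 76.6% in untreated DKO, and 57.3% to 67.8% and 77.5% to 85.4% after 5-aza.

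After 5-aza, Hoxc13 again was higher in DKO, 1.83 times WT, while the genes from Hoxc4 to Hoxc11 other than Hoxc6 overlapped between genotypes. None of 9 members passed an adjusted p of 0.05 in limma, and neither did any of the 16856 genes tested (0%). By voom 0 members passed, and the authors' deposited table has 1. At an unadjusted p under 0.05, 2 members (Hoxc13 and Hoxc12) were higher and 0 lower, beside 6.64% and 2.3% of all genes tested. The median difference of the members was -0.26 on the log2 scale, beside 0.03 for all genes tested. It was -0.01 without WT replicate 1, -0.05 without DKO replicate 1, -0.45 without WT replicate 2 and -0.44 without DKO replicate 2.

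Hoxc13 was 13.0 and 11.6 FPKM in WT and 22.0 and 23.1 FPKM in DKO after 5-aza. Both groups were tight and far apart (12.3 ± 0.963 and 22.6 ± 0.774, SD, n = 2). The log2 difference was 0.83 ± 0.09 (95% interval ± 0.23, adjusted p = 0.286, limma), the 23rd smallest p of all genes tested. In the authors' deposited table it was 0.81 ± 0.13 with an adjusted p of 2.2e-07, where 0.547% of genes were called higher and 0.161% lower. Hoxc12 was 0.227 and 0.191 FPKM in WT and 0.320 and 0.300 in DKO, from 9 to 18 reads. Its groups did not overlap (0.12 ± 0.04, adjusted p = 0.506, limma).

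Hoxc9 was 1.09 and 0.516 FPKM in WT and 0.312 and 0.810 FPKM in DKO. Hoxc8 was 1.85 and 1.04 FPKM in WT and 0.725 and 1.32 FPKM in DKO. In both genes 1 library of each group was high (WT replicate 1 and DKO replicate 2), and the groups overlapped. The differences were -0.21 ± 0.23 for Hoxc9 (adjusted p = 0.843, limma) and -0.27 ± 0.23 for Hoxc8 (adjusted p = 0.787).

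Hoxc4, at 1.14 and 0.591 FPKM in WT and 0.358 and 0.673 in DKO, had the same order of libraries. So did Hoxc5, at 1.42 and 0.865 FPKM against 0.609 and 0.965, and Hoxc10, at 1.31 and 0.446 against 0.212 and 0.755. Hoxc11 had 26 and 11 reads in WT and 2 and 24 reads in DKO. WT replicate 1 was the highest library for each of these genes and DKO replicate 1 the lowest. Hoxc6 was the only member below WT without overlap, at 2.37 and 1.76 FPKM in WT and 1.21 and 1.69 FPKM in DKO (-0.32 ± 0.15, adjusted p = 0.625, limma). Over all genes tested after 5-aza, 11.6% were below and 28% above without overlap. The adjusted p of Hoxc4, Hoxc5, Hoxc10 and Hoxc11 was 0.717 to 0.825.

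**Figure D3:**
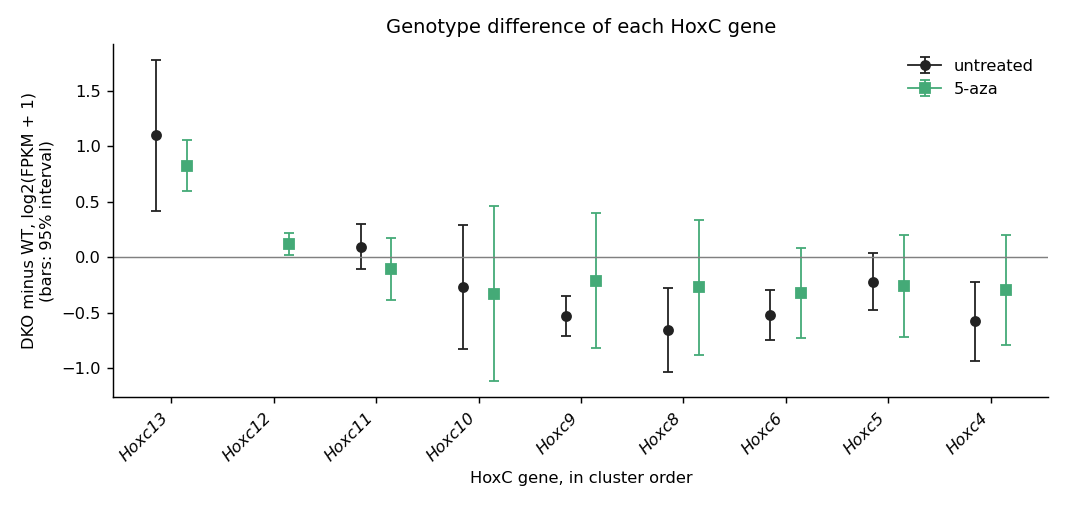
Difference between DKO and WT in log2(FPKM + 1) for each HoxC gene in cluster order, with 95% intervals from limma, for the untreated (black circles) and 5-aza (green squares) tables; Hoxc12 was below the filter in the untreated table. Hoxc13 was at 1.10 and 0.83, and the intervals of Hoxc9, Hoxc8, Hoxc6 and Hoxc4 lay below 0 in the untreated table and reached across 0 after 5-aza.

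Whether the genotype difference itself was altered by 5-aza was tested as an interaction over 8 libraries and the 15699 genes past the filter in both tables. Of 8 members tested, 0 passed in limma (adjusted p 0.940 to 0.998), and 0 had an unadjusted p under 0.05, beside 0.0191% of genes past the adjusted threshold and 3.03% higher and 2.59% lower without adjustment. The change in the difference was -0.27 for Hoxc13 (95% interval ± 0.74), 0.32 for Hoxc9 (± 0.63) and 0.39 for Hoxc8 (± 0.71). These intervals take in 0 and also changes as large as the untreated differences of Hoxc9 and Hoxc8, so the tables do not separate a kept from a lost difference for these genes. A change of table scale cancels in this contrast only at high FPKM.

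Levels between members can be compared per length once the length is settled. The deposited length of each member equals end minus start position, summed over the exons of all its transcripts in GENCODE M21. It thus leaves out a base of each exon (2459 against 2461 bases for Hoxc13). Exons shared by transcripts counted more than once in the deposited length. It was 1.60 times the non-overlapping exon length for Hoxc4, 1.44 times for Hoxc8, 1.25 times for Hoxc6, 1.24 times for Hoxc9 and 1.14 times for Hoxc5. This lowers the FPKM of these genes and leaves the DKO to WT ratios as they are. With each exon base counted once, the untreated WT order was Hoxc13 (12.6 ± 4.45 FPKM), Hoxc8 (6.02 ± 0.931), Hoxc6 (5.21 ± 0.172), Hoxc4 (3.48 ± 0.791), Hoxc5 (2.19 ± 0.247), Hoxc10 (1.45 ± 0.290), Hoxc9 (1.19 ± 0.0785), Hoxc11 (0.206 ± 0.0150) and Hoxc12 (0.191 ± 0.0298). Hoxc8 and Hoxc6, Hoxc10 and Hoxc9, and Hoxc11 and Hoxc12 differed by less than the larger SD of the pair.

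In untreated DKO, on the same scale, Hoxc13 (27.5 ± 4.48 FPKM) was followed by Hoxc8 (3.29 ± 0.611) and Hoxc6 (3.26 ± 0.113), then by Hoxc4 (1.79 ± 0.140) and Hoxc5 (1.72 ± 0.0412). Within each of these pairs the genes did not differ beyond their spread. Hoxc10 (1.07 ± 0.560), Hoxc12 (0.504 ± 0.342), Hoxc9 (0.446 ± 0.0545) and Hoxc11 (0.290 ± 0.127) came last. After 5-aza Hoxc13 was again first, at 12.3 ± 0.962 FPKM in WT and 22.5 ± 0.773 in DKO. Hoxc6 was second at 2.58 ± 0.540 and 1.81 ± 0.424, and from Hoxc6 to Hoxc10 no neighbour in the WT order differed from the next by more than the larger SD. The share of Hoxc13 in the cluster on this scale was 30.5% and 46.4% in WT and 65.4% and 72.1% in DKO, and 51.4% and 62.3% against 82.2% and 73.2% after 5-aza.

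Among follicle genes known to lie downstream of Hoxc13 or to act with it, Dsg4, Foxn1, Krt35 and Krt32 had larger values in both untreated DKO libraries, and none passed the adjusted threshold of limma. Of 7 genes listed, 6 had a row, and in untreated libraries 4 were higher at an unadjusted p under 0.05 and 0 lower, beside 6.72% and 4.73% of all genes tested. Their median difference was 0.93 on the log2 scale, beside 0.01 for all genes. Their summed FPKM was 22.3 and 26.4 in WT and 55.6 and 79.3 in DKO. Dsg4, a desmosomal cadherin of the hair shaft, was 3.31 and 3.73 FPKM in WT and 12.2 and 15.5 in DKO (1.71 ± 0.14, adjusted p = 0.0831, limma). Foxn1, a transcription factor of hair differentiation, was 3.72 and 3.31 FPKM against 7.08 and 8.10 (0.93 ± 0.11, adjusted p = 0.117). Krt35, a hair shaft keratin, was 11.9 and 15.6 FPKM against 31.6 and 48.2 (1.45 ± 0.25, adjusted p = 0.183), and Krt32 differed by 0.94 ± 0.16 (adjusted p = 0.181).

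The same 6 genes summed to 32.0 and 31.3 FPKM in WT and to 49.9 and 63.3 FPKM in DKO after 5-aza, with 4 higher and 0 lower at an unadjusted p under 0.05, beside 6.64% and 2.3% of all genes. Scaling to reads in genes with a row left 2 higher. Dsg4 was 3.14 and 3.29 FPKM in WT and 7.47 and 9.12 in DKO (1.14 ± 0.11, adjusted p = 0.286, limma), and Krt35 differed by 0.79 ± 0.17 (adjusted p = 0.398). Foxq1, a transcription factor of the hair medulla, differed by 0.72 ± 0.23 (adjusted p = 0.506), beside 0.03 ± 0.23 in untreated libraries. Its interaction was 0.69 ± 0.37 (adjusted p = 0.904, limma). Of the 6 genes, 1 had a positive and 5 a negative interaction, with 0 past the adjusted threshold. Only Dsg4 (-0.57 ± 0.19) had an unadjusted p under 0.05, beside 2.59% of all genes lower. Krt82, a cuticle keratin, was at 1.06 and 0.592 FPKM in WT and 0.374 and 1.03 in DKO (-0.12 ± 0.23, adjusted p = 0.924). The summed FPKM of 6 epithelial genes (Krt5, Krt14, Cdh1, Epcam, Trp63 and Dsp) was 429.1 and 517.9 in WT and 795.4 and 885.8 in DKO, and 352.8 and 310.5 against 517.4 and 563.6 after 5-aza. Of these 6, 3 were higher untreated at an unadjusted p under 0.05 (Krt14, Cdh1 and Dsp) and 4 after 5-aza (also Krt5), against the same shares of all genes, with 0 lower and 0 past the adjusted threshold of limma. Their part in the Hoxc13 difference was not tested.

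Several markers of the dermal papilla, the mesenchymal core that the matrix surrounds, had smaller values in the same libraries as the HoxC genes other than Hoxc13. Of 8 dermal papilla markers, 5 were lower in untreated DKO at an unadjusted p under 0.05 and 0 higher, beside 4.73% and 6.72% of all genes tested, with 0 past the adjusted threshold of limma. Their median difference was -0.55 on the log2 scale, beside 0.01 for all genes. Corin was 13.6 and 13.5 FPKM in WT and 5.68 and 6.35 in DKO (-1.05 ± 0.09, adjusted p = 0.0831, limma), and Inhba was 18.6 and 15.8 FPKM against 9.52 and 8.99. Rspo3 was 21.5 and 17.0 FPKM against 10.9 and 9.82, while Fgf10 was alike, at 16.3 and 18.1 FPKM against 16.1 and 18.8. The summed markers were 228.6 and 204.4 FPKM in WT and 173.6 and 163.7 FPKM in DKO, in the same order as the sum of Hoxc4 to Hoxc12. None of the 8 was at 0 in the 4 libraries of a table. Their part in the HoxC differences was not tested.

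After 5-aza the dermal papilla markers summed to 60.1 and 26.7 FPKM in WT and to 20.7 and 44.6 FPKM in DKO, with 0 of 8 at an unadjusted p under 0.05 in limma. The libraries with the higher sum in each genotype, WT replicate 1 and DKO replicate 2, were those with more RNA of Hoxc4 to Hoxc11. Melanocyte markers (5 genes) split the same libraries, at 92.6 and 19.5 FPKM in WT and 26.4 and 133.5 in DKO. The sum of HoxC genes other than Hoxc13 was 9.70 and 5.53 FPKM in WT and 3.77 and 6.72 FPKM in DKO. Hoxc13 had the same order within each genotype but with small gaps, at 13.0 and 11.6 against 22.0 and 23.1 FPKM. Summed dermal fibroblast markers were 471.1 and 1267 FPKM in untreated WT and 1361 and 1142 in DKO, an order that the HoxC genes did not share. After 5-aza the fibroblast sums were 144.2 and 67.9 FPKM in WT and 97.4 and 140.6 in DKO, with the same libraries high as for Hoxc4 to Hoxc11. Sums of endothelial and mural markers (2.65 and 1.20 FPKM in WT, 2.07 and 3.67 in DKO), of immune markers (0.846 and 0.558, 0.663 and 1.12) and of muscle, fat, blood and nerve markers (3.54 and 0.849, 0.981 and 1.14) split the same way after 5-aza. The epithelial sums (352.8 and 310.5, 517.4 and 563.6) and the sums of genes linked to Hoxc13 (32.0 and 31.3, 49.9 and 63.3) also had this order. The hair matrix sums had the opposite order, at 237.3 and 266.7 FPKM in WT and 291.4 and 241.3 in DKO. The part of these cell types in the HoxC values was not tested. At an unadjusted p under 0.05 in untreated libraries, 0 of 8 fibroblast, 2 of 5 melanocyte, 3 of 5 endothelial and mural, 3 of 5 immune and 2 of 7 hair matrix genes were higher in DKO and 0 lower, beside 6.72% and 4.73% of all genes. After 5-aza 2 fibroblast and 1 hair matrix gene were higher, beside 6.64% of all genes. By that criterion 0 melanocyte, endothelial and mural, immune, or muscle, fat, blood and nerve genes differed. Only 1 of 5 immune genes and 2 of 6 muscle, fat, blood and nerve genes were tested there.

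**Figure D4:**
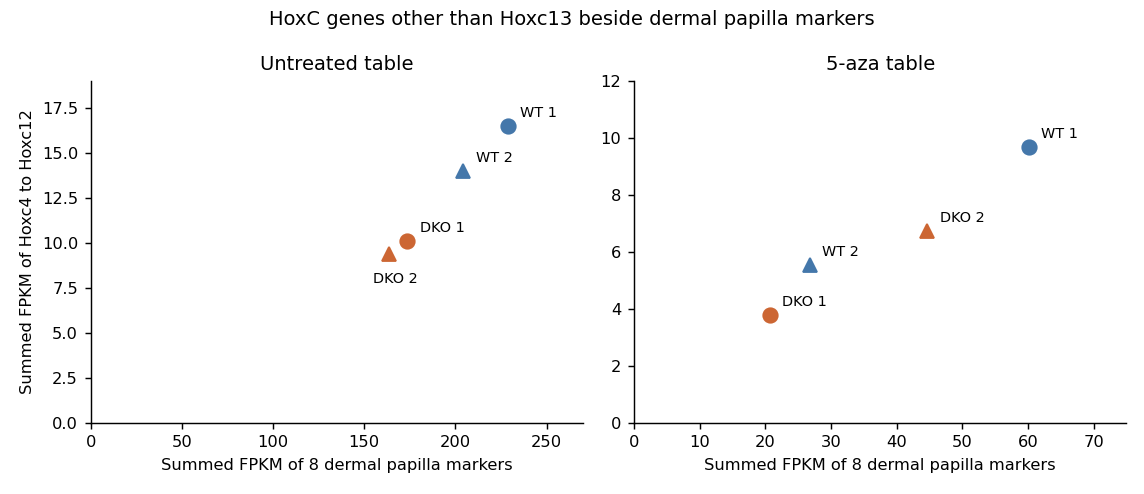
Summed FPKM of the 8 HoxC genes other than Hoxc13 (vertical) against summed FPKM of 8 dermal papilla markers (horizontal) in each library of the untreated (left) and 5-aza (right) tables, both axes linear from 0. The order of libraries was the same on both axes in each table, from DKO replicate 2 (9.38 FPKM) to WT replicate 1 (16.5 FPKM) untreated, and from DKO replicate 1 (3.77 FPKM) to WT replicate 1 (9.70 FPKM) after 5-aza.

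Of the other Hox clusters, HoxA was the one whose values were mostly lower in DKO. Of 9 HoxA genes tested, 8 had a negative difference in untreated DKO and 9 after 5-aza, beside 46.2% and 37.2% of all genes tested. At an unadjusted p under 0.05, 2 were lower untreated (Hoxa5 and Hoxa3) and 4 after 5-aza (Hoxa5, Hoxa4, Hoxa3 and Hoxa7), beside 4.73% and 2.3% of all genes, with 0 higher and 0 past the adjusted threshold. Hoxa5 was 3.36 and 3.23 FPKM in WT and 2.45 and 2.29 in DKO (-0.35 ± 0.09, adjusted p = 0.284, limma), and 3.45 and 3.04 against 2.11 and 2.23 after 5-aza (-0.42 ± 0.08, adjusted p = 0.365). Hoxa5 did not overlap between genotypes in either table. Rescaling the libraries left 8 and 9 of them negative. Of 8 HoxB genes tested, 6 had a positive difference in each table, beside 53.8% and 62.8% of all genes (5 untreated after rescaling, with 1 then lower at an unadjusted p under 0.05). One was higher in each at an unadjusted p under 0.05 (Hoxb6 untreated, 0.32 ± 0.12, and Hoxb9 after 5-aza, 0.25 ± 0.06), against 6.72% and 6.64% of all genes. Of the HoxD genes, 3 passed the filter untreated and 6 after 5-aza, with 1 higher (Hoxd8 after 5-aza, 0.36 ± 0.11).

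Genes that act on Hox genes or with Hox proteins were counted by the same criterion, which 4.73% of all genes met as lower and 6.72% as higher untreated, and 2.3% and 6.64% after 5-aza. Of 9 TALE cofactors, the Pbx, Meis and Pknox proteins that bind DNA together with Hox proteins, 1 was lower untreated at an unadjusted p under 0.05 (Meis3, -0.20 ± 0.06) and 1 higher after 5-aza (Pbx2, 0.25 ± 0.08), the latter not when scaled to reads in genes with a row. Of 19 Polycomb genes, 1 was lower untreated (Cbx7, -0.22 ± 0.08; 2 after rescaling), a share near that of all genes, and 0 differed after 5-aza by the same criterion. Of 10 Trithorax and H3K27 demethylase genes, 0 did in either table. Of 8 genes listed as neighbours, 1 of which (Hotair) is a gene of the cluster and was not tested, 6 were tested and 0 did. No gene of these lists passed the adjusted threshold.

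The genes most like Hoxc13 across 8 libraries, each table centred on its own mean, were Psmb5 (Pearson r = 0.998), Tspan2 (0.997), Eif2b4 (0.994), Zscan25 (0.992) and Mtmr3 (0.991) of 15691 compared. Among those most like Hoxc9 were Ak1 (0.993), Plekhd1 (0.981), Meis3 (0.977) and Arhgef40 (0.976). The points share libraries, depth and genotype, and r is given as a description without a test. Psmb5, a proteasome subunit, was 15.6 FPKM in WT and 19.1 in DKO, a smaller difference than that of Hoxc13, and Ak1, adenylate kinase 1, was 3.03 and 2.35 FPKM.

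Non-coding genes of the cluster had few reads. Hotair had 0 to 5 reads per library, Mir196a-2 0 to 3 and Mir615 0 to 22. The 2 microRNA genes are annotated inside the span of Hoxc5, and reads counted for them in these libraries do not measure mature microRNAs. Of the members, Hoxc4 has an entry among the RefSeq promoter windows (GRCm38.p6, 250 bases before to 50 after the start). The window, chr15:103034145-103034444, lies inside the annotated span of Hoxc4 and not at the upstream end of the gene. It holds 9 CG dinucleotides (the letters CG, the same on both strands) in 300 bases, and 45.8% of 32851 windows hold as many or more. This is a description of the letters, and DNA methylation was not measured in these files.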

How the data were processed

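RNA-seq values came from 8 libraries in 4 groups. Per the submitters' processing notes, the tools were Trim Galore, STAR and HTSeq, followed by DESeq2, on the build GRCm38 (mm10). Versions, annotation and strand setting are not given in the sources used here, and the labels name more than 1 library kit without tying it to a group. The authors deposited 2 tables, 1 for each comparison of genotypes. Their library columns are FPKM, relative to the library total. Their mean column is a deposited signal value, the mean of size-factor normalised reads, and their statistic is a deposited score of a Wald test. Fold changes and SE were deposited as log2 values with WT in the numerator, and the sign was reversed here. The p-value columns deposited by the authors give raw and adjusted p of DESeq2. The deposited length, in bases, is a value of another kind that gives reads: FPKM times length was a whole number of reads, within 0.001, for 100% of values.

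Genes were tested if they had 10 or more reads, scaled to the median library, in 2 or more libraries and 15 or more in total. The test was limma 3.58.1 in R 4.3.3 on log2(FPKM + 1), with a variance trend. P-values were two-sided, adjusted by Benjamini-Hochberg over all genes tested, with a threshold of 0.05. The fit was tested on simulated data. Fold changes on the log2(FPKM + 1) scale understate the change of low genes. Depth limits precision for members with few reads, and intervals of reads cover counting error only. Libraries with the same replicate number were not taken as pairs, since their deviations did not correlate in both tables (r = 0.03 untreated and -0.59 after 5-aza). Alternatives were other pseudocounts, filters and scalings, no trend, voom, a replicate block, all 8 libraries in 1 fit and each library left out.

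All 9 members are named, and in the other lists counts in each direction with up to 4 members of smallest p. The 5 genes most like Hoxc13 and Hoxc9 were chosen by Pearson r, and 1 of them is not reported here. Members and lists were chosen with earlier results of these data known. Fgf10 and Krt82 are named outside these rules, after their values were seen, and Xist, Ddx3y, Tet2, Tet3, Hotair, Mir196a-2 and Mir615 as checks.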

Additional observations from a re-analysis of the deposited data

How the results depend on the processing

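The count of HoxC genes past the adjusted threshold in limma was 0 in all 3 comparisons under other pseudocounts, filters and scalings, without a trend, with voom, in 1 joint fit of 8 libraries, and with each library left out in turn (0 to 0). The replicate block, with libraries of the same number as a block, gave 0 HoxC calls in each comparison; over all genes it gave 13 calls untreated in place of 1, 0 after 5-aza and 0 for the interaction in place of 3. Numbers crossed between the 5-aza genotypes, a pairing added after seeing the data, gave 91 calls in place of 0, 1 of them a HoxC gene (Hoxc13), and at an unadjusted p under 0.05 put 2 members higher and 7 lower, beside 2091 and 999 of 16856 genes.

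Of 112 untreated values of single members under alternatives, 2 changed sign; of 134 after 5-aza 4 did, and of 144 for the interaction 8 did, each with 1 library left out. Over the libraries left out, the untreated difference ran from -0.55 to 0.014 for Hoxc10 and from -0.0066 to 0.19 for Hoxc11, changing sign without DKO replicate 2. After 5-aza it ran from -0.44 to 0.024 for Hoxc9, from -0.66 to 0.012 for Hoxc10 and from -0.22 to 0.012 for Hoxc11, changing sign without WT replicate 1 or DKO replicate 1. The interaction ran from -0.23 to 0.15 for Hoxc5, from -0.40 to 0.28 for Hoxc10 and from -0.61 to 0.068 for Hoxc13. The genotype difference of Hoxc13 was 0.76 to 1.44 untreated and 0.75 to 0.90 after 5-aza. Over all genes, untreated calls numbered 0 with no filter, a 0.1 FPKM filter, no trend or 1 library left out, 8 and 7 with pseudocounts of 0.1 and 0.5, 111 in the joint fit and 147 by voom. Interaction calls numbered 0 to 3. Scaling to reads in genes with a row changed genes higher and lower at an unadjusted p under 0.05 from 1120 and 387 to 741 and 707 after 5-aza, and from 475 and 406 to 399 and 581 for the interaction. The cause of these changes was not tested.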

Other observations

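Reads were few for 3 members of the posterior end: Hoxc10 had 25 to 72 reads per untreated library and 16 to 118 per 5-aza library, Hoxc11 had 9 to 15 and 2 to 26, and Hoxc12 had 4 to 15 and 9 to 18. The 5-aza library DKO replicate 1 had 2 reads for Hoxc11, with an exact 95% Poisson interval of 0.242 to 7.22, beside 24 reads in DKO replicate 2, with an interval of 15.4 to 35.7. Mir615, a microRNA gene of the cluster, had 22 and 16 reads in WT and 3 and 11 reads in DKO after 5-aza, beside 6, 0, 0 and 2 reads untreated. Meis3, a TALE cofactor and 1 of the 5 genes most like Hoxc9, was 0.752 and 0.782 FPKM in untreated WT and 0.546 and 0.541 FPKM in untreated DKO, and 0.218 and 0.0922 FPKM against 0.0791 and 0.192 FPKM after 5-aza.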
